A study of Rattus norvegicus with 6 samples.

Results

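The sodium pump of the kidney was examined through 8 genes of its subunits, its FXYD regulators and the basolateral potassium channels that work beside it. These genes were Atp1b1, Atp1b3, Fxyd1, Fxyd2, Fxyd4, Fxyd5, Kcnj10 and Kcnj16. They were chosen by name, each had 1 probeset annotated with that symbol alone, and all 8 were found among 14506 genes on the array. Total RNA came from glomeruli of male Sprague-Dawley rats, with no treatment, culture or genetic change in either group. There were 3 arrays of PEC-enriched isolates, retained on the 90 µm sieve. In these, capsulated glomeruli, which still hold the parietal epithelial cells (PECs) of Bowman's capsule, outnumbered decapsulated ones, but decapsulated glomeruli were present in every preparation. There were also 3 arrays of PEC-deprived isolates, collected on the 75 µm sieve, with mostly decapsulated glomeruli and few or no capsulated ones. Both isolates are mixtures of cells from the cortex, and the study counted tubular fragments among the glomeruli of both. In such bulk RNA, fewer cells of a type and less RNA per cell cannot be told apart. The study took RNA from individual rats and names 3 animals, but lists each sieve fraction as a preparation of its own. The labels do not say whether a PEC-enriched and a PEC-deprived array share a rat.

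The sodium pump, or Na,K-ATPase, sits in the basolateral membrane of tubule cells and moves sodium out of and potassium into the cell, which drives sodium reabsorption along the whole nephron. A catalytic alpha subunit pairs with a glycosylated beta subunit that brings it to the membrane. A small FXYD protein, named after its conserved motif, can join them and tune how strongly the pump binds its ions. Inwardly rectifying potassium channels of the Kir family let the potassium that the pump has brought in leave again across the same membrane.

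The promoters shown are those of the channel partners Kcnj16 and Kcnj10, which differed in their values as described with the channels, and that of Atp1b3, whose values were close to equal in both isolates. The sequences are RefSeq promoters of the GRCr8 assembly, each 250 bases before to 50 bases after the annotated start, written 5′ to 3′, and capitals mark matches to the GC box GGGCGG on either strand.
Kcnj16, chr10:96517074-96517373, + strand: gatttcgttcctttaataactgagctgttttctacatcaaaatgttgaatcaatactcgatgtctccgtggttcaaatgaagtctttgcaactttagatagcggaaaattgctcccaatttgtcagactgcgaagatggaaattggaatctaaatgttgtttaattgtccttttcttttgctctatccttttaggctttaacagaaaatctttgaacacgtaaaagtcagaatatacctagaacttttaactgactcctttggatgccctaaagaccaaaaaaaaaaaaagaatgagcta
Kcnj10, chr13:87334260-87334559, + strand: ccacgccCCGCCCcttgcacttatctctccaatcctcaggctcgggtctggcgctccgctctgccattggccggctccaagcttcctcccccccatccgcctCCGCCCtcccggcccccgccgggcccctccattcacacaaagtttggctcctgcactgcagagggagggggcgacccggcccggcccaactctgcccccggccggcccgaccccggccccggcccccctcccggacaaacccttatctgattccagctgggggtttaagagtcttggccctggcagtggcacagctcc
Atp1b3, chr8:105821102-105821401, - strand: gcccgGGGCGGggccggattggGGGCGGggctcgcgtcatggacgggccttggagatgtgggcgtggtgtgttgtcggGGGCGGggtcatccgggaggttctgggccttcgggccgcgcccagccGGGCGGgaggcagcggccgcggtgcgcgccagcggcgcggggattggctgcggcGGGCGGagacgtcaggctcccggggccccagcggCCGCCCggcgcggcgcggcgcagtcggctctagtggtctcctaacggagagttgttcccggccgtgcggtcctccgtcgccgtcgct
The Kcnj16 promoter had a GC content of 34% and no GC box, and 3.49% of the 33469 RefSeq promoters had a lower GC content. The Kcnj10 promoter had a GC content of 70.3% and 2 GC boxes, and the Atp1b3 promoter one of 77.7% and 6 GC boxes. A GC box was present in 33.1% of all these promoters, whose median GC content was 51.7%. The HNF1 element GTTAAT (7.45% of all promoters), the element AAGGTCA of estrogen-related receptors (4.61%), the steroid receptor element TGTTCT (20.7%) and the TATA box TATAAA (14.2%) were searched on both strands in the same way. None of these 4 motifs was found in the 3 printed windows, and among the promoters held for 6 of the 8 genes, of which Fxyd5 has 2, GTTAAT occurred only in that of Fxyd1. Atp1b1 and Fxyd2 were not matched to a promoter.

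The genes split into 3 kinds of pattern. Atp1b1, Fxyd2 and Kcnj16 had means over 2-fold above those of PEC-deprived isolates, as did 0.965% of all genes. Fxyd5 had a lower mean. Atp1b3, Fxyd1, Fxyd4 and Kcnj10 had overlapping groups. None of the 8 reached the threshold used here, a Benjamini-Hochberg adjusted p below 0.01 when limma was run on 29215 probesets. That is 0 of 8 beside a background of 0.00%, and the smallest adjusted p among the 8 was 0.166. At an unadjusted p below 0.05 limma picked out 4 of the 8, beside 13.6% of all genes and 10.4% of all probesets. Of these 4, 3 were higher (background 7.96% of all genes) and 1 was lower (background 5.65%). The mean was higher in 6 of the 8, beside 44.8% of all genes. The groups did not overlap in the same 4 genes, beside 18.7% of all genes, and these were again 3 higher (background 9.68%) and 1 lower (background 9.00%). The median log2 fold change, PEC-enriched minus PEC-deprived, was 0.25 over the 8 genes and -0.02 over all genes. Atp1b1, Fxyd2 and Kcnj16 are also on the study's own list of differentially expressed genes, which was drawn from the very same arrays and thus gives no independent evidence of direction. The study's list also used an adjusted p below 0.01, so its calls of these 3 genes were not reproduced by limma here. Values are RMA log2 values, in which a difference of 1 is a 2-fold difference. The p-values measure the spread between 3 arrays a group.

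**Figure D1:**
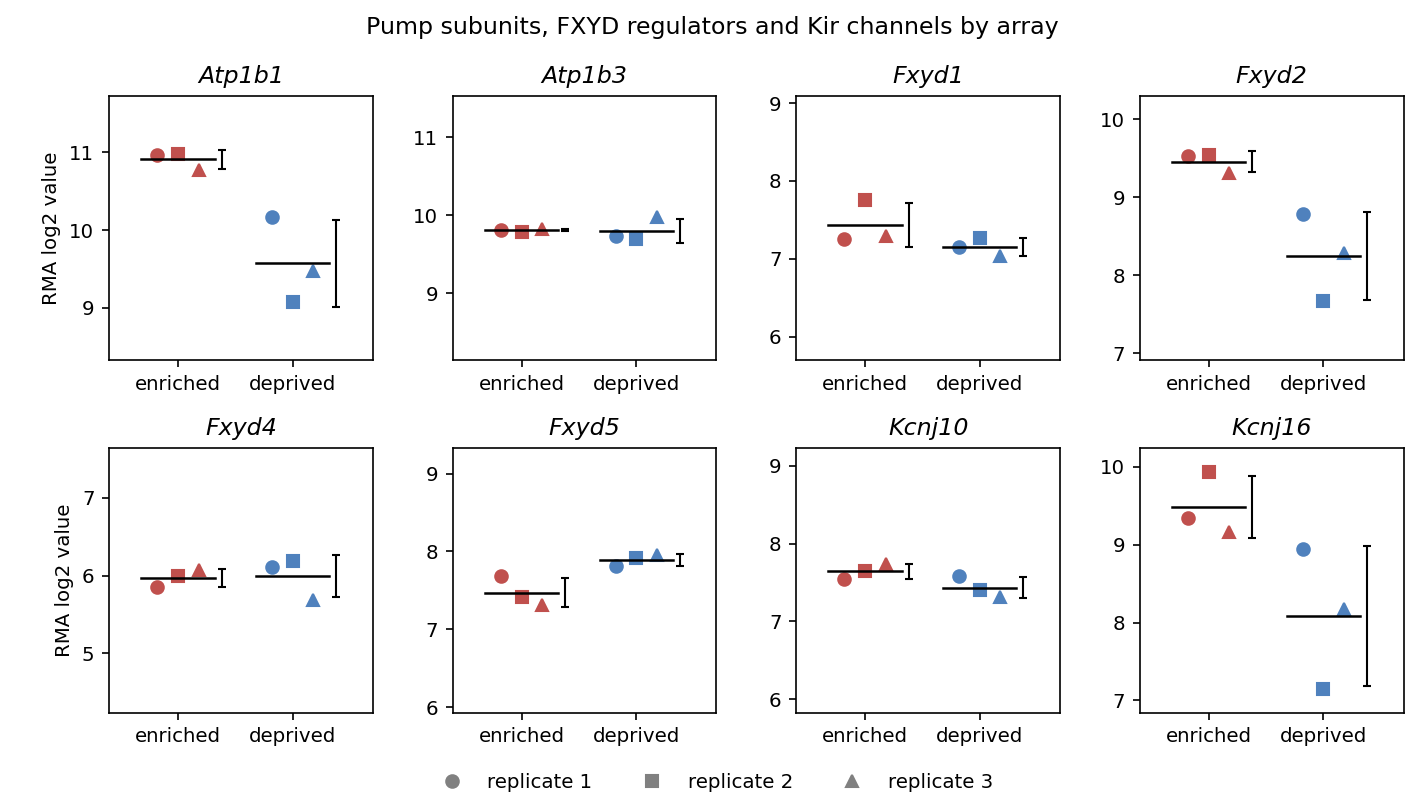
RMA log2 value (y axis) of the 8 genes by isolate (x axis, PEC-enriched left, PEC-deprived right), with each point 1 array, the symbol its replicate number, each line the mean of 3 arrays and each bar 1 SD; every panel spans the same number of log2 units. Atp1b1, Fxyd2 and Kcnj16 have all PEC-enriched arrays above all PEC-deprived arrays, Fxyd5 has them all below, and the other 4 genes overlap.

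The values of the beta subunits were unlike. Atp1b1 encodes the beta subunit that pairs with the alpha subunit in most of the nephron. It had log2 values of 10.97, 10.98 and 10.77 on the PEC-enriched arrays, against 10.17, 9.07 and 9.48 on the PEC-deprived arrays. The PEC-enriched arrays lay close together and 0.61 or more above the highest PEC-deprived array, while the PEC-deprived arrays spanned 1.1. Over 3 arrays each, the mean ± SD was 10.91 ± 0.117 for PEC-enriched and 9.57 ± 0.557 for PEC-deprived isolates. The log2 fold change was 1.34 (standard error, SE, 0.245 and 95% interval 0.77 to 1.9), or 2.53-fold, with an adjusted p of 0.166 in limma.

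Atp1b3, a beta subunit found in many tissues, had log2 values of 9.81, 9.79 and 9.82 on the PEC-enriched arrays, against 9.73, 9.69 and 9.98 on the PEC-deprived arrays. The PEC-enriched values fell inside the range of the PEC-deprived ones. Its log2 fold change was 0.01 (SE 0.103, adjusted p = 0.995 in limma), and the 95% interval of -0.23 to 0.24 leaves room for changes of up to 1.18-fold upwards. The sign of so small a value changed with the scaling and with single arrays. On each array the log2 ratio of Atp1b1 to Atp1b3, taken relative to its mean over the 6 arrays, was 0.73, 0.75 and 0.52 in PEC-enriched isolates, against 0, -1.06 and -0.93 in PEC-deprived isolates. The 2 groups of ratios did not overlap and differed by 1.33 (two-sided exact permutation p = 0.1, the smallest that 3 arrays against 3 allow, and 0.1 after adjustment over 5 pairs of genes).

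Of the other subunits of this family of pumps, 5 of 9 listed were measured and 0 passed the test. An unadjusted p below 0.05 in limma was found in 0 (background 13.6% of all genes). The groups overlapped in all 5, while they did not overlap in 18.7% of all genes. Their log2 fold changes ran from -0.07 to 0.07 with a median of 0 (median of all genes -0.02). Atp1b2, a beta subunit known from glia and neurons, had a log2 fold change of 0.07 (SE 0.126, adjusted p = 0.924 in limma). Atp1a4, the alpha subunit of sperm, and Atp1b4, a muscle protein related to beta subunits, stood at -0.07 and -0.03. The interval of Atp1b1 lay above those of Atp1b3 and of these 5 subunits without overlap. The Atp1b1 locus overlaps that of Nme7 in RefSeq. Nme7 itself had a log2 fold change of 0.16 (SE 0.104, adjusted p = 0.694 in limma).

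Among the FXYD regulators Fxyd2 stood apart. It encodes the gamma subunit, which is bound to the pump in the proximal tubule, the thick ascending limb and the distal convoluted tubule. It had log2 values of 9.53, 9.54 and 9.31 on the PEC-enriched arrays, against 8.79, 7.67 and 8.28 on the PEC-deprived arrays. No arrays overlapped, and the gap between the groups was 0.52. Over 3 arrays each, the mean ± SD was 9.46 ± 0.127 for PEC-enriched and 8.25 ± 0.563 for PEC-deprived isolates, a log2 fold change of 1.21 (SE 0.248, 95% interval 0.64 to 1.78), or 2.32-fold, with a limma adjusted p of 0.173.

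Fxyd5 encodes dysadherin, a pump regulator that also weakens adhesion between epithelial cells. It had log2 values of 7.68, 7.42 and 7.31 on the PEC-enriched arrays, against 7.81, 7.91 and 7.95 on the PEC-deprived arrays. All PEC-enriched arrays lay below all PEC-deprived arrays, with a gap of 0.13. Its log2 fold change was -0.42 (SE 0.116, 95% interval -0.68 to -0.15), which is 1.34-fold lower in PEC-enriched isolates, with a limma adjusted p of 0.274. Endothelial markers had lower means on the same arrays. All 9 measured had a lower mean, from -0.88 for the transcription factor Erg to -0.25, with the VEGF receptor Flt1 at -0.69, and their mean level was 11.16, 10.61 and 10.66 on the PEC-enriched arrays, against 11.27, 11.43 and 11.37 on the PEC-deprived arrays. PEC-enriched replicate 1 was the highest of its group in Fxyd5 as in these markers. Leukocyte markers had a lower mean in 8 of 8, while 44.8% of all genes had a higher mean. They ran from -0.67 for Cd74, the invariant chain, to -0.04, with Ptprc, or CD45, at -0.46. In limma 1 of the 8 was lower at an unadjusted p below 0.05 (background 5.65% of all genes). All PEC-enriched arrays lay below in 1 of the 8 (background 9.00%). The mean level of the list was 6.95 to 7.68 on the PEC-enriched arrays, against 7.53 to 7.72 on the PEC-deprived arrays. The part of either cell type in the Fxyd5 value was not tested.

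Fxyd1, or phospholemman, is the pump regulator of heart and muscle. It had log2 values of 7.25, 7.76 and 7.29 on the PEC-enriched arrays, against 7.15, 7.27 and 7.03 on the PEC-deprived arrays. The groups overlapped, and PEC-enriched replicate 2 stood above the other 5 arrays. Its log2 fold change was 0.28 (SE 0.148, 95% interval -0.06 to 0.62, adjusted p = 0.594 in limma), and 0.12 without PEC-enriched replicate 2. Of 7 measured mesangial and smooth muscle markers 4 averaged higher and 3 averaged lower, and the median of their log2 fold changes was 0.02. Their mean level was 9.03, 8.81 and 8.78 on the PEC-enriched arrays, against 8.81, 8.81 and 8.83 on the PEC-deprived arrays. The largest value was that of Myh11, the myosin of smooth muscle, at 7.6, 8.29 and 7.75 on the PEC-enriched arrays, against 7.16, 7.01 and 6.98 on the PEC-deprived arrays. The actin-binding protein Tagln was at 8.01, 8.61 and 8.22 on the PEC-enriched arrays, against 7.66, 7.57 and 7.45 on the PEC-deprived arrays. Both are on the study's own list. Replicate 2 was the highest PEC-enriched array in both of them as in Fxyd1, and also in the actin Acta2 (log2 fold change 0.22). It was the lowest PEC-enriched array in the mesangial markers Gata3 and Pdgfrb, which stood at -0.64 and -0.39. Replicate 3 was the highest PEC-enriched array in Des and Cnn1, which stood at -0.34 and 0.02. The part of muscle or mesangial RNA in the Fxyd1 value was not tested.

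Fxyd4, the corticosteroid-induced regulator of the collecting duct, had log2 values of 5.85, 5.99 and 6.07 on the PEC-enriched arrays, against 6.11, 6.19 and 5.69 on the PEC-deprived arrays. The PEC-enriched values fell within the PEC-deprived range, and this was the only one of the 8 probesets below the median level of all probesets. Its log2 fold change was -0.03 (SE 0.143, 95% interval -0.35 to 0.3, adjusted p = 0.98 in limma), and its sign changed when single arrays were left out. Markers of principal cells, the collecting duct cells that express Fxyd4, had a higher mean in 7 of 7, from 0.05 to 0.66, with the water channel Aqp3 at 0.58, and their mean level was 6.64, 6.59 and 6.64 on the PEC-enriched arrays, against 6.46, 6.15 and 6.16 on the PEC-deprived arrays.

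The log2 ratio of Fxyd2 to each of these 3 regulators was higher on all PEC-enriched arrays than on any PEC-deprived array. The difference between the isolates was 1.63 for Fxyd2 over Fxyd5, 1.24 over Fxyd4 and 0.93 over Fxyd1 (two-sided exact permutation p = 0.1 each, the smallest possible, and 0.1 after adjustment over the 5 pairs). The Fxyd2 to Fxyd1 ratio differed by 0.58 without PEC-deprived replicate 2.

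**Figure D2:**
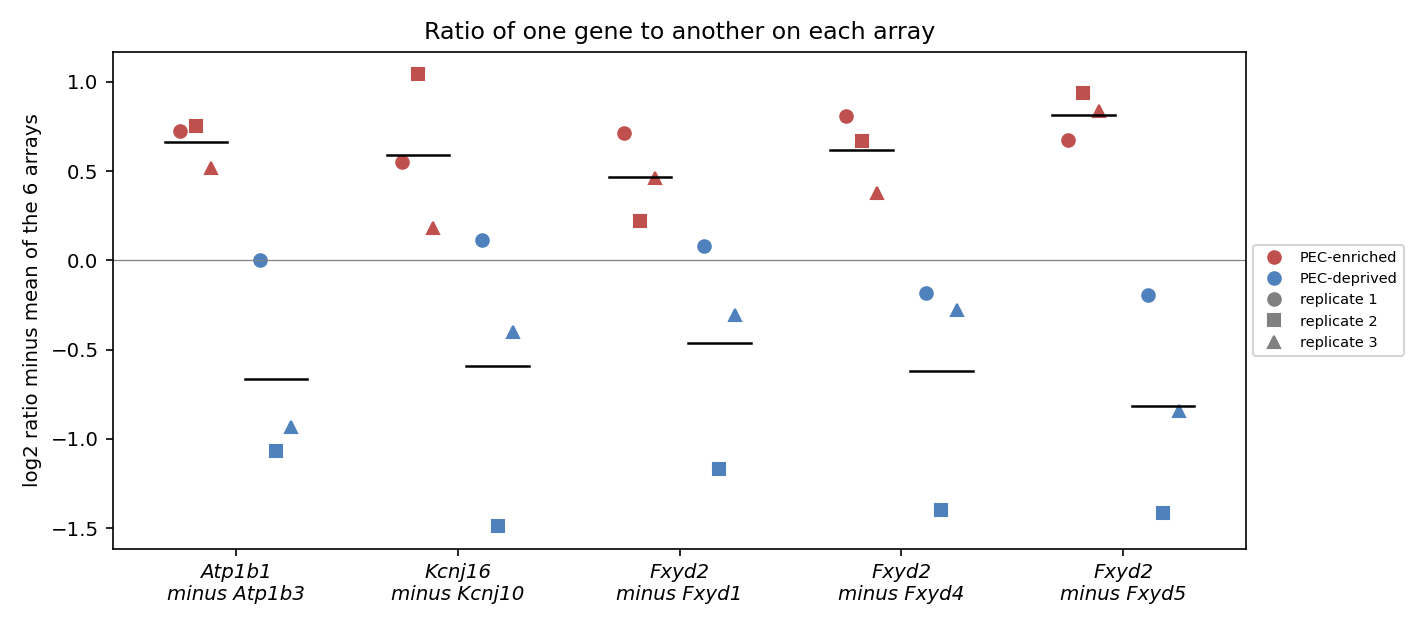
Log2 ratio of one gene to another on each array, relative to its mean over the 6 arrays (y axis), for 5 pairs (x axis), with each point 1 array, PEC-enriched left and PEC-deprived right in each pair, and each line the mean of 3 arrays. The groups do not overlap in any pair, and PEC-deprived replicate 1 is the PEC-deprived array nearest to the PEC-enriched ones in all 5.

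Of the remaining family members, Fxyd6, a regulator known from the nervous system, had log2 values of 10.51, 9.77 and 9.86 on the PEC-enriched arrays, against 10.29, 10.71 and 10.6 on the PEC-deprived arrays. PEC-enriched replicate 1 lay inside the PEC-deprived range. Its log2 fold change was -0.49 (SE 0.204, adjusted p = 0.448 in limma). Fxyd3, an FXYD protein of stomach and colon epithelium, and Fxyd7, one of the brain, stood at -0.01 and 0.02 with overlapping groups. Of the 3, 0 passed in limma, and 1 (Fxyd6) had an unadjusted p below 0.05 (background 13.6% of all genes). In the RefSeq gene order Fxyd6 is the neighbour of Fxyd2 on chromosome 8, and these neighbours had log2 fold changes of -0.49 and 1.21. On chromosome 1 Fxyd5, Fxyd7, Fxyd1, Lgi4 and Fxyd3 follow each other, and their log2 fold changes were -0.42, 0.02, 0.28, -0.13 and -0.01.

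The channels Kcnj10 and Kcnj16 encode Kir4.1 and Kir5.1, which join into 1 channel in the basolateral membrane of the thick ascending limb, distal convoluted tubule and collecting duct. In the proximal tubule Kir5.1 pairs instead with Kir4.2, the product of Kcnj15. Kcnj16 had log2 values of 9.35, 9.94 and 9.17 on the PEC-enriched arrays, against 8.94, 7.15 and 8.17 on the PEC-deprived arrays. The groups did not overlap, but PEC-deprived replicate 1 came within 0.23 of the lowest PEC-enriched array, and the PEC-deprived arrays spanned 1.79. Over 3 arrays each, the mean ± SD was 9.49 ± 0.403 for PEC-enriched and 8.09 ± 0.897 for PEC-deprived isolates. The log2 fold change was 1.40 (SE 0.407, 95% interval 0.46 to 2.34), or 2.64-fold, with a limma adjusted p of 0.294. It was 0.93 without PEC-deprived replicate 2 and 1.82 without PEC-deprived replicate 1.

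Kcnj10 had log2 values of 7.55, 7.65 and 7.74 on the PEC-enriched arrays, against 7.58, 7.4 and 7.32 on the PEC-deprived arrays. PEC-deprived replicate 1 lay above the lowest PEC-enriched array. The log2 fold change was 0.22 (SE 0.105, 95% interval -0.02 to 0.46, adjusted p = 0.548 in limma). The log2 ratio of Kcnj16 to Kcnj10, relative to its mean over the arrays, was 0.55, 1.04 and 0.18 in PEC-enriched isolates, against 0.11, -1.49 and -0.39 in PEC-deprived isolates. The ratios did not overlap and differed by 1.18 (two-sided exact permutation p = 0.1, the smallest possible), and by 0.73 without PEC-deprived replicate 2. Kcnj10 is also a channel of glia. Of 4 measured nerve and glia markers 3 had a higher mean, with the adhesion molecule Ncam1 at 0.36 and the neuronal tubulin Tubb3 at -0.16, and the glial markers S100b and Gfap had log2 fold changes of 0.08 and 0.01.

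Other potassium channels of the kidney were compared from a list of 12, of which 11 were measured, 0 passed the test in limma, 2 passed in the regularised test described at the end (background 0.407% of all probesets) and 9 had a higher mean (background 44.8% of all genes). At an unadjusted p under 0.05 limma found 6 higher (background 7.96% of all genes) and 0 lower (background 5.65%), and the median log2 fold change was 0.28. Kcnj15 had log2 values of 8.81, 9.06 and 8.6 on the PEC-enriched arrays, against 8.3, 7.13 and 8.05 on the PEC-deprived arrays. Its PEC-deprived arrays ran replicate 1, 3, 2 from high to low, as in Kcnj16, and its log2 fold change was 1 (SE 0.279, adjusted p = 0.276 in limma). Kcnj1, the apical potassium channel of the thick ascending limb and collecting duct, had log2 values of 7.58, 7.14 and 7.15 on the PEC-enriched arrays, against 6.49, 5.6 and 5.42 on the PEC-deprived arrays, a log2 fold change of 1.45 (SE 0.267, adjusted p = 0.166 in limma). Kcnk1, a channel of the tandem pore family, had one of 1.25 (SE 0.169, adjusted p = 0.152 in limma). Kcnj1, Kcnj15 and Kcnk1 are on the study's own list, and the other 8 measured channels are not. Kcnj2, which neighbours Kcnj16 in the RefSeq gene order on chromosome 10, had a log2 fold change of 0.22 (adjusted p = 0.433 in limma).

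The pump works against the sodium that enters at the apical membrane, and all 11 listed genes of apical sodium transporters and channels were measured. Of these, 0 passed the test in limma, 10 had an unadjusted p below 0.05 (background 13.6% of all genes), and 2 passed in the regularised test described at the end (background 0.407% of all probesets). All 11 averaged higher in the PEC-enriched group, and in 8 of them no arrays overlapped (background 18.7% of all genes). The median log2 fold change was 0.76, against -0.02 over all genes. Slc12a1, or NKCC2, through which the thick ascending limb takes up sodium, potassium and chloride, had log2 values of 10.03, 9.42 and 9.53 on the PEC-enriched arrays, against 8.07, 6.2 and 6.26 on the PEC-deprived arrays. Slc12a3, the sodium-chloride cotransporter of the distal convoluted tubule, had values of 10.06, 9.25 and 8.93 on the PEC-enriched arrays, against 8.2, 6.91 and 7.12 on the PEC-deprived arrays. Their log2 fold changes were 2.82 (SE 0.458, adjusted p = 0.153 in limma) and 2 (SE 0.377, adjusted p = 0.166 in limma), and both genes are on the study's own list. Slc34a3, a sodium-phosphate cotransporter of the proximal tubule, stood at 1 (SE 0.338, adjusted p = 0.35 in limma).

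Regulators and anchors of the pump were mixed. Of 19 measured genes of 24 listed, 0 passed the test in limma and 1 in the regularised test (background 0.407% of all probesets). An unadjusted p below 0.05 was found in 5 that were higher (background 7.96% of all genes) and 2 that were lower (background 5.65%). The mean was higher in 11 and lower in 8, and the median log2 fold change was 0.04. Ank3, an ankyrin that ties the pump to the spectrin skeleton, had log2 values of 7.52, 7.81 and 7.34 on the PEC-enriched arrays, against 6.97, 6.49 and 6.82 on the PEC-deprived arrays, a log2 fold change of 0.80 (SE 0.161, adjusted p = 0.17 in limma). Esrrg, an estrogen-related nuclear receptor, stood at 0.93 (SE 0.171, adjusted p = 0.166 in limma). Hsd11b2, which keeps cortisol and corticosterone from the mineralocorticoid receptor, stood at 0.66 (SE 0.175, adjusted p = 0.246 in limma). Ank3 and Esrrg are the 2 genes of this list that are on the study's own list.

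**Figure D3:**
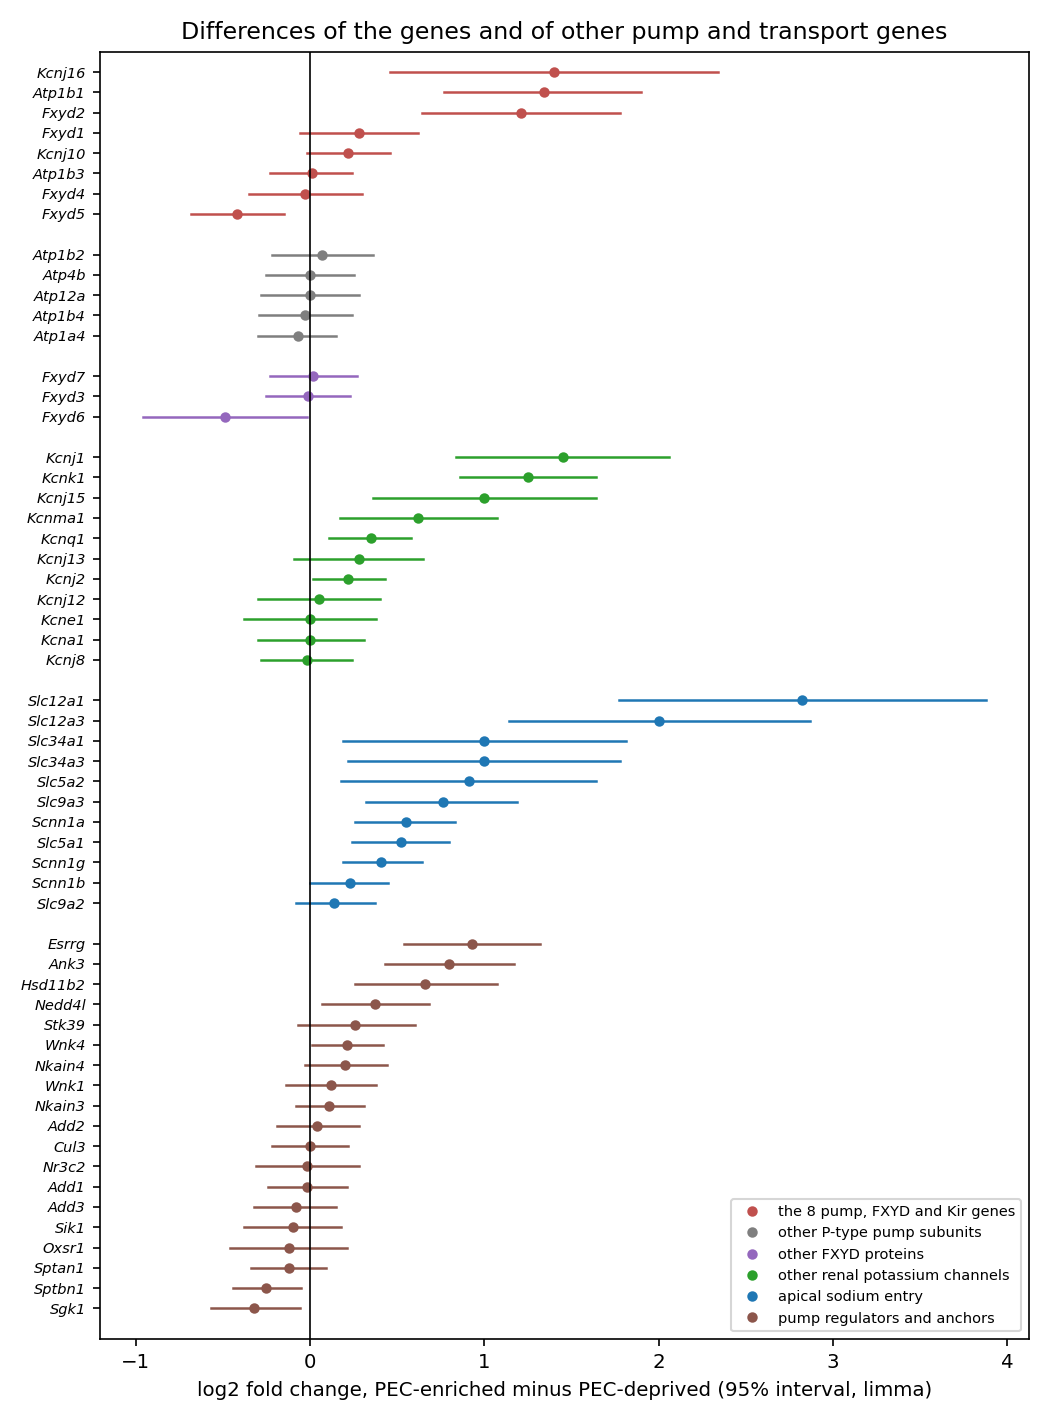
Log2 fold change, PEC-enriched minus PEC-deprived (x axis), of the 8 genes and of the measured genes of 5 related lists (y axis, gene), with points for the estimate and lines for its 95% interval from limma over 3 arrays a group. Kcnj16, Atp1b1 and Fxyd2 lie at 1.4, 1.34 and 1.21, all 11 apical sodium entry genes lie above 0, and the 5 other pump subunits lie between -0.07 and 0.07.

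Across the 6 arrays Atp1b1, Fxyd2 and Kcnj16 had similar profiles. Each ran replicate 1, 3, 2 from high to low on the PEC-deprived arrays, an order that 20.3% of all genes showed. Atp1b1 correlated with Fxyd2 at r = 0.9953 and with Kcnj16 at r = 0.96, and Fxyd2 with Kcnj16 at r = 0.97 (Pearson, over 6 arrays). With Atp1b1, Fxyd5 correlated at r = -0.81 and Atp1b3 at r = 0.02. These coefficients are descriptions over 6 arrays that include the difference between the isolates, and carry no test.

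Among 7253 genes above the median level, those most like Atp1b1 over the 6 arrays were Aldh1a1, an enzyme of retinoic acid synthesis (r = 0.9968), Slc25a5, the ADP/ATP carrier of mitochondria (r = 0.9967), and Tfcp2l1, a transcription factor of the distal nephron (r = 0.9953). Most like Fxyd2 were Nit2, an amidase (r = 0.997), Aldh1a1 (r = 0.9954) and Atp1b1 itself (r = 0.9953). Most like Kcnj16 were Kmo, an enzyme of tryptophan breakdown (r = 0.9998), Ass1, which makes argininosuccinate (r = 0.9991), and Hao2, a peroxisomal oxidase (r = 0.999). Most like Fxyd5 were Csnk1e, a casein kinase, Rps6ka2, a ribosomal S6 kinase, and Crip2, a LIM domain protein of the vasculature, at r = 0.9987, 0.9985 and 0.9961. Most like Atp1b3 were Chpf, Lrrc59 and Icmt, at r = 0.9944, 0.9918 and 0.9557, and most like Fxyd1 were Traf3ip1, Tmem168 and Tmem33, at r = 0.9988, 0.996 and 0.991. Most like Kcnj10 were Prr13, Csrp2 and Ppp1r16a, at r = 0.9816, 0.9805 and 0.9739, and most like Fxyd4 were Myl3, Prpf38a and Ypel3, at r = 0.9766, 0.968 and 0.9673. With so few arrays and so many genes, coefficients of this size occur even for Atp1b3, whose mean differed by 0.01 between the isolates.

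Markers of the other cells that the isolates can hold also differed in mean on these arrays. Proximal tubule markers had a higher mean in 10 of 10, with a median log2 fold change of 1.04, and a mean level of 9.27, 9.82 and 9.31 on the PEC-enriched arrays, against 9.16, 7.98 and 8.55 on the PEC-deprived arrays. Thick ascending limb markers had a higher mean in 7 of 7, with a median of 1.45, and a mean level of 8.71, 8.27 and 8.2 on the PEC-enriched arrays, against 7.41, 6.32 and 6.65 on the PEC-deprived arrays. Miox, an oxygenase of the proximal tubule, and Slc13a3, a dicarboxylate transporter, stood at 1.3 and 1.16, and Umod, the uromodulin of the thick ascending limb, at 2.88. PEC markers had a higher mean in 9 of 9, with a median of 1.38, and a mean level of 8.16, 8.93 and 8.43 on the PEC-enriched arrays, against 7.59, 6.99 and 7.27 on the PEC-deprived arrays. The PEC markers with the largest values were Cdh6, a cadherin, at 1.64 and Lad1, a basement membrane anchor, at 1.63. All 3 lists had the PEC-deprived order 1, 3, 2 of Atp1b1, Fxyd2 and Kcnj16. That order was not particular to them. The mean levels of principal cell markers, intercalated cell markers, other renal potassium channels and apical sodium entry genes also showed it. Distal convoluted tubule markers ran 1, 2, 3. All 9 PEC markers are on the study's own list, as are 6 of the 7 thick ascending limb markers and 3 of the 10 proximal tubule markers. That list came from these same arrays, so the higher means of the PEC markers give no independent evidence of more PEC RNA. In the study's own staining, the products of Cdh6 and Pax8, 2 of the PEC markers, were seen in tubules as well as in PECs. Distal convoluted tubule markers had a higher mean in 4 of 5 and intercalated cell markers in 7 of 7, with medians of 0.37 and 0.94. Among them Calb1, a calcium-binding protein of the distal convoluted tubule, stood at 2.16, and the proton pump subunits Atp6v1b1 and Atp6v0a4 of intercalated cells at 1.21 and 1.13. The distal convoluted tubule markers ran from -0.08 to 2.16 and the intercalated cell markers from 0.31 to 1.21. Podocyte markers had a higher mean in 4 of 7 and a median of 0.05, with a mean level of 11.46 to 11.8 on the PEC-enriched arrays, against 11.6 to 11.64 on the PEC-deprived arrays. The podocyte transcription factor Tcf21 stood at 0.41 and the phosphatase Ptpro at 0.19. In the other direction, 3 of the 7 podocyte markers had a lower mean, down to -0.14. Of all these markers 0 passed the test in limma. The regularised test called 6 of the 9 PEC, 4 of the 7 thick ascending limb, 3 of the 7 intercalated cell, 2 of the 5 distal convoluted tubule and 1 of the 9 endothelial markers, and none of the other marker lists (background 0.407% of all probesets). How much of the Atp1b1, Fxyd2 and Kcnj16 values came from tubule fragments and how much from PECs cannot be told apart, since markers of both had higher means on the same arrays.

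**Figure D4:**
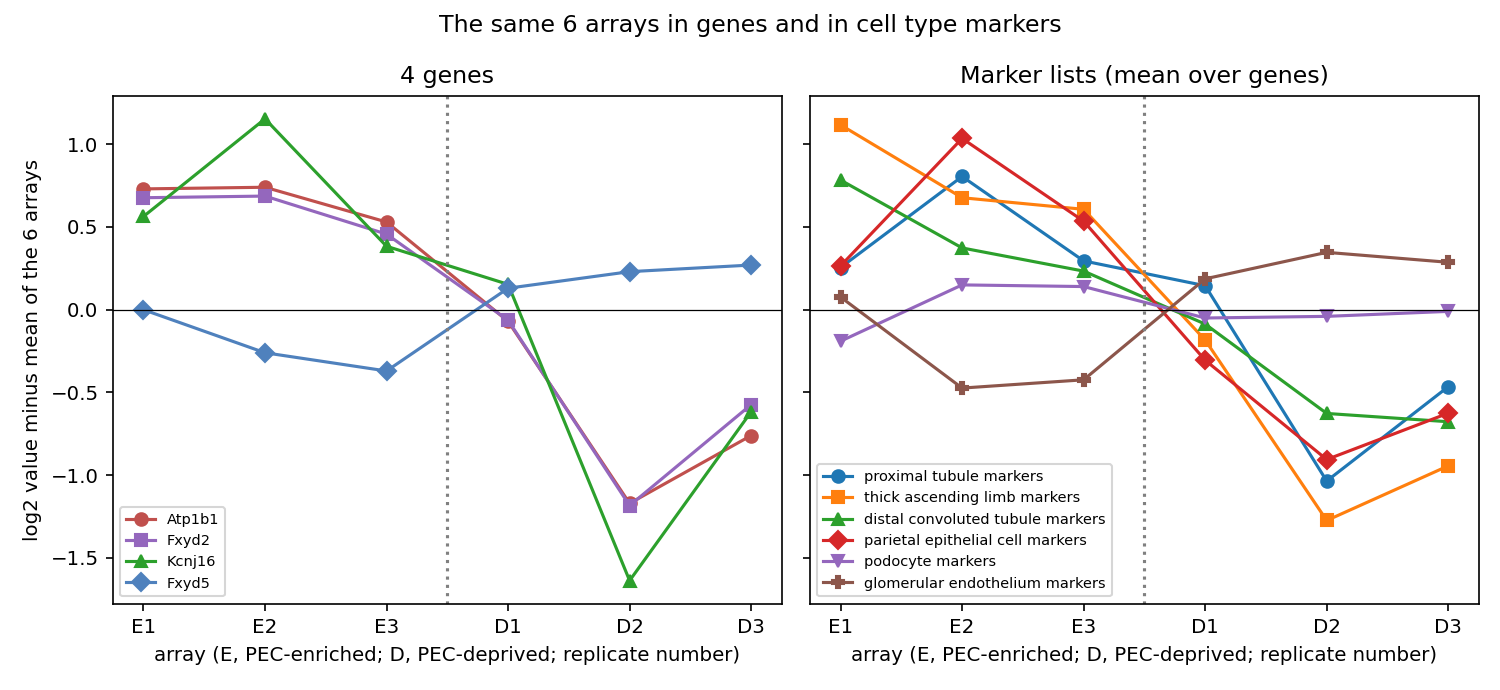
Log2 value relative to the mean of the 6 arrays (y axis) on each array (x axis, E for PEC-enriched and D for PEC-deprived with the replicate number) for 4 genes (left) and for the mean of 6 marker lists (right); lines join the arrays only to guide the eye. Proximal tubule and PEC markers are lowest on PEC-deprived replicate 2, at -1.04 and -0.91, as are Atp1b1, Fxyd2 and Kcnj16, while Fxyd5 and endothelial markers are higher on the PEC-deprived arrays.

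With the kind of test that the methods name, a regularised Bayesian test in which the variance of a probeset is combined with that of its neighbours in level, an adjusted p below 0.01 was reached by 2 of the 8 at a prior weight of 10, against 0.407% of all probesets. These were Atp1b1 (adjusted p = 0.000607) and Fxyd2 (adjusted p = 0.0026), and Kcnj16, although on the study's own list, did not pass (adjusted p = 0.0152). On simulated data this test made a larger share of false calls than limma (11.4% against 0.405%), and a larger one than the threshold allows, so its adjusted p-values were too small there. It also recovered more of the simulated 2-fold changes, 85.4% against 51.4% for limma. Each simulated probeset kept the spread estimated from its own few arrays, so these shares may not hold for the real data. At prior weights of 6 and 3, which were tried after the data were seen, 0 of the 8 passed. In limma Atp1b1 came nearest to the threshold without PEC-deprived replicate 1, where its log2 fold change was 1.63 with an adjusted p of 0.0244.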

How the data were processed

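Glomerular RNA was measured on 6 Affymetrix Rat Gene arrays. The deposited values are log2 expression values that the authors made with RMA, which subtracts background, equalizes the arrays by quantiles and sums up each probeset. They lay between 2.13 and 13.87, with array medians of 6.69 to 6.75. The submitters' processing notes also name RMA. Its software and version could not be stated from the sources used here. That the logarithm has base 2 is taken from RMA. No detection calls or scanner files entered the work. The number of arrays limits the precision. Correlations between arrays lay between 0.9816 and 0.9937, and none were identical.

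Of 29215 probesets, 15310 carry 1 gene symbol in the platform annotation of 2016, 323 several and 13582 none. Symbols were updated through Entrez IDs to RefSeq (GRCr8, used for names, gene order and promoters), and a gene was its probeset with the highest mean. All probesets were tested with lmFit and eBayes of limma 3.58.1 (R 4.3.3) without covariates, two-sided, at a Benjamini-Hochberg adjusted p below 0.01, the threshold of the methods, and the code was checked on simulated data. Ratios of genes were compared by exact permutation (scipy 1.17.1). The regularised test used windows of 101 probesets and a prior weight of 10. Genes named were the 8 genes, the 3 of each related list and the 2 of each marker list with the largest absolute log2 fold change, and the 3 most alike genes of each of the 8; S100b, Gfap, Nme7, Lgi4, Kcnj2, Acta2, Gata3, Pdgfrb, Des and Cnn1 were named after their values were seen. The 8 genes and all lists were chosen with earlier results of these data known. Other alternatives were a replicate block, array weights, eBayes with an intensity trend, cyclic loess, centring on medians, 2 probeset filters, a threshold of 0.05 and leaving out each array. Each of the 8 genes had 1 probeset, so a mean over probesets was not needed. No batch is given in the labels.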

Additional observations from a re-analysis of the deposited data

How the results depend on the processing

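The number of the 8 genes past an adjusted p under 0.01 was 0 in limma under every alternative, and 0 with an adjusted p under 0.05. It was 2 with the regularised Bayesian test at a prior weight of 10, where Atp1b1 (log2 fold change 1.34) and Fxyd2 (1.21) passed. The number of probesets past the threshold was 0 in limma and 119 with that test, 1 at a prior weight of 6 and 0 at a prior weight of 3, and limma called 1 without PEC-deprived replicate 1. All of these counts are below the number that the study called at the same threshold. The cause was not tested. With 3048 probesets at an unadjusted p under 0.05, the smallest adjusted p over all probesets was 0.152.

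Signs changed only in Atp1b3 and Fxyd4, whose log2 fold changes lay near 0. Atp1b3 was at -0.0035 with median centring, -0.00094 without PEC-enriched replicate 3, and -0.03 and -0.05 without PEC-deprived replicates 1 and 2. Fxyd4 was at 0.03 without PEC-enriched replicate 1, 0.03 without PEC-deprived replicate 1 and 0.07 without PEC-deprived replicate 2, and it was not tested among probesets above the median level. Without single arrays the log2 fold changes ran from 1.08 to 1.63 for Atp1b1, -0.05 to 0.1 for Atp1b3, 0.12 to 0.37 for Fxyd1, 0.92 to 1.49 for Fxyd2, -0.18 to 0.07 for Fxyd4, -0.52 to -0.34 for Fxyd5, 0.16 to 0.29 for Kcnj10 and 0.93 to 1.82 for Kcnj16. The counts ran from 0 to 0 for the 8 genes and 0 to 1 for probesets.

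The labels do not say whether same-numbered arrays share a rat, though the methods name 3 animals. The deviations of same-numbered arrays from their group means correlated at -0.029, 0.052 and 0.1, so the numbers were not used as pairs in the comparisons reported, and with so few arrays this does not show that the rats differed. With the replicate block 0 of the 8 genes passed, the log2 fold change of Atp1b1 was 1.34 (limma adjusted p = 0.295), and the ratio of Atp1b1 to Atp1b3 differed by 1.33 (exact sign-flip test over 3 pairs, p = 0.25, the smallest possible). The 5 differences between pairs of genes kept their direction under every alternative tried. Median centring was no check of them, because an array median cancels in a ratio of genes on the same array.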
